A study of Mus musculus with 16 samples.

Results

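The 36 Cep genes, which take their name from centrosomal proteins, were followed in the aged mouse left ventricle. The members are every row whose gene symbol is Cep followed by digits, with or without a letter suffix such as l or nl, out of 55487 genes in the deposited tables. The long non-coding RNA genes Cep112it, Cep112os1 and Cep83os were left out by that rule. The family was chosen by a measured value, the difference of Cep128 between the groups in these same libraries, which was known beforehand. Values of the multiparous against virgin comparison are therefore given below as a description. No p-value of a member is given there, and the number of members past a threshold stands only beside the share of all genes.

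The hearts were those of C57Bl/6J mice at an age of 24 months, and RNA came from the middle part of the left ventricle. The multiparous group (8 libraries) came from mice with more than 3 pregnancies, and the virgin group (8 libraries) had none. All groups shared the strain, age and tissue, the labels name no treatment or engineered allele, and all hearts were flushed with cold PBS. The names of the multiparous libraries carry a code, MP for 4 libraries (multiparous 3, 4, 6 and 8) and P for 4 (multiparous 1, 2, 5 and 7), and every virgin library carries the code AA. What the codes stand for is not given in the labels, so the groups and any condition that went with the AA code cannot be told apart. The number of litters of each mouse and the time since the last one were not given in the labels. Tissue sections mix cardiomyocytes with other cells, and a lower share of 1 cell type and less RNA per cell cannot be told apart in such data.

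A centrosome is a pair of centrioles embedded in pericentriolar material from which microtubules grow. A new centriole is built beside each old one once per cell cycle. The older, or mother, centriole carries subdistal appendages that hold microtubules and distal appendages that dock it to the membrane, where it serves as the base of the primary cilium. In cardiomyocytes that have left the cell cycle, much of the microtubule-organising activity is known to move from the centrosome to the nuclear envelope.

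Gene counts ranged from 34560606 to 58890976 in 15 libraries and reached 228325238 in virgin 8. The 8 cardiomyocyte markers summed to between 57063 and 83815 CPM, the depth-scaled count used throughout, with TMM factors, and were high in every library, with the lowest sum in virgin 1. Virgin 1 also had the highest sum over 24 mitosis genes, 201 CPM, against 51.3 to 110 in the other virgin libraries and 53.9 to 130 in the multiparous ones. Cenpf, with a mean of 45.6 CPM over the 16 libraries, made up a large part of these sums. The median sum was 94.8 CPM in multiparous and 81.2 CPM in virgin libraries, while 23 of the 24 genes had a lower mean in multiparous ones. The 14 kidney tubule markers summed to 10.4 to 35.96 CPM in multiparous and 20.9 to 126 CPM in virgin libraries, and all 12 of them that could be tested had a lower mean in multiparous libraries. Their median log2 difference was −3.41. edgeR called 0 of the 12, where it called 0.0112% of all genes. At an unadjusted p under 0.05, 11 of the 12 were lower, as 4.09% of all genes were. A gene can pass the filter on low counts through the group where it is high, so the direction among the 12 can be partly set by the filter. No kidney marker was at 0 in every library. Sums of 7 genes of multiciliated cells were between 0.371 and 2.17 CPM and those of 5 thyroid genes between 2.701 and 4.39 CPM. Of the lists of other heart cells, 4 of 6 fibroblast, 3 of 6 endothelial, 6 of 6 macrophage and 3 of 6 smooth muscle and pericyte markers had a higher mean in multiparous libraries, and edgeR called 0 in each, where it called 0.0112% of all genes. Of these, 2 fibroblast markers were higher and 1 smooth muscle and pericyte marker was lower at an unadjusted p under 0.05, which 8.12% of all genes reached.

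All 36 Cep genes passed the filter on low counts in the comparison of multiparous with virgin libraries. Levels were compared between genes as CPM per kilobase of exons. Cep68, a linker protein between the pair of centrioles, had the highest level at 15.1 per kilobase over the 16 libraries, with a range from 12.7 to 17.4. Cep85, which takes part in starting centriole duplication, stood at 11.4 (8.67 to 15.5). The ranges overlapped, but Cep68 was above Cep85 in 16 of 16 libraries. Below them were Cep350 (6.57), Cep85l (5.96) and Cep120 (5.91), whose ranges of 5.68 to 7.24, 5.36 to 6.66 and 5.44 to 6.35 also overlapped. Cep350 was above Cep85l in 14 and above Cep120 in 15 of the 16 libraries, and Cep85l was above Cep120 in 9. Cep68 also ranked highest when the longest transcript was used as the length. By that length Cep120 (8.90) stood above Cep350 (8.16) and Cep85l (6.41), so their order was not kept.

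The lower end of the family was occupied by genes with few counts in the smaller libraries. Cep72 had a level of 0.0932 per kilobase, Cep55 0.187 and Cep295nl 0.312. Raw counts behind them were 17 to 154 for Cep72, 8 to 103 for Cep55 and 14 to 93 for Cep295nl. Of the 36 genes, 26 had at least 1 CPM per kilobase. Cep128 ranked 22 at 1.16 (0.714 to 1.82). With the longest transcript as the length it ranked 14 at 3.40, so its place in the family depended on the length used.

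**Figure D1:**
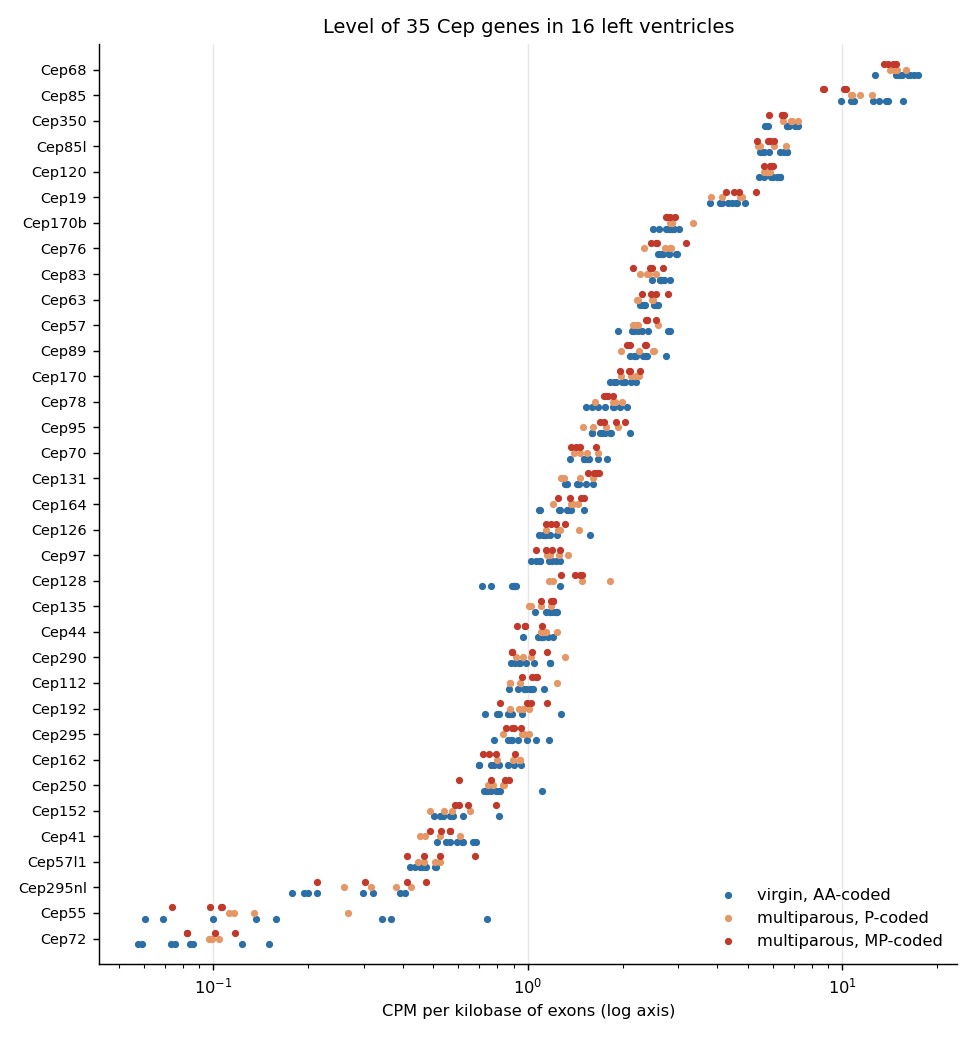
Level of 35 Cep genes (vertical axis, ordered by the mean) in CPM per kilobase of exons (horizontal log axis), 1 point per library, coloured by library code. Cep68 and Cep85 lie near the top, and Cep72, Cep55 and Cep295nl are at the low end, with Cep55 spread most widely between libraries.

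The Cep genes are long genes with many exons. Their median exonic length in the GENCODE annotation of GRCm38 was 6135.5 bases and the median number of exon blocks was 19, against 3495 bases and 7 blocks over 21974 protein-coding genes. They lay on 15 chromosomes, with 7 of the 36 on chromosome 9. Of the 36, 12 (33.3%) had the start of a protein-coding gene on the opposite strand within 1000 bases of their own start, against 2378 (10.8%) of protein-coding genes. Examples are Cep95 beside Ddx5 (67 bases), Cep57l1 beside Sesn1 (64 bases), Cep44 beside Fbxo8 (43 bases) and Cep19 beside Pigx (60 bases). This arrangement is a property of the annotation and was not compared with the expression values.

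Cep128 has such a neighbour. The gene lies on the minus strand of chromosome 12, from 90998492 to 91384409, with 33 exon blocks and 14093 exonic bases. Its start is 154 bases from that of Tshr, the receptor for thyroid-stimulating hormone, which is transcribed the other way. Tshr had between 0 and 7 counts per library, and a count of 0 allows up to 3 counts.

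Upstream sequences are shown for Cep128 and Cep85, the genes on which the 2 comparisons below turn, and for the Cep genes with a match to the X-box, the site bound by the RFX factors that switch on cilium genes. RefSeq promoter windows in GRCm38.p6, of 250 bases before to 50 bases after the start, were found for 30 of the 36 genes. Each stretch runs 5′ to 3′ on the strand of the gene. The 250 bases before the start of Cep128 are chr12:91384410-91384659, minus strand, and those of Cep85 are chr4:134187086-134187335, minus strand. Capitals mark matches on either strand to CCAAT, to the E2F-like motif TTNNCGC, to the cell cycle motif TTTGAA and to the X-box. In Cep128 the only match is an E2F-like one at 212 bases before the start. In Cep85 there are E2F-like matches at 238 and 37 bases before the start and CCAAT matches at 100 and 45 bases before it.
Cep128: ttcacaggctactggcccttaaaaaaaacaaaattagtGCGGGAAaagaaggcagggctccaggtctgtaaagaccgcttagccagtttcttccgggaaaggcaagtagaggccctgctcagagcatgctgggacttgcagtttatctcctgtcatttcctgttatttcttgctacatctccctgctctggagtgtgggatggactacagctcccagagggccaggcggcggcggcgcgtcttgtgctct
Cep85: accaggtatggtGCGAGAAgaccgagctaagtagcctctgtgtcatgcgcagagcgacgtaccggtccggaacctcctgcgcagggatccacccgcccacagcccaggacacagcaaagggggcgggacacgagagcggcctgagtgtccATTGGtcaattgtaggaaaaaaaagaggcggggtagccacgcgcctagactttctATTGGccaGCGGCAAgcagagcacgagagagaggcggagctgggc

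X-box matches were found in 2 of the 30 windows (6.67%), against 1.53% of all 32851 windows in the table. Capitals mark the X-box alone in the stretches below. The pair in Cep112 lies at chr11:108425016-108425059 and chr11:108425162-108425215, plus strand, and the match in Cep41 at chr6:30693846-30693900, minus strand.
Cep112, distal site: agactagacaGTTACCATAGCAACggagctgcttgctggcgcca
Cep112, proximal site: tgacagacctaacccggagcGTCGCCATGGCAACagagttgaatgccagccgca
Cep41: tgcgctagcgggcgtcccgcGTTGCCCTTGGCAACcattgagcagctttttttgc

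The E2F-like motif was in 16 of the 30 windows (53.3%), against 20.2% of all windows. The CCAAT motif was in 15 (50%), against 37.4%, and TTTGAA was in 8 (26.7%), against 17.9%. The GC-rich motif GGGCGG was in 22 windows (73.3%), against 35.7%. TATAAA was in 2 (6.67%), against 13.6%, and the E-box CACGTG was in 2 (6.67%), against 7.15%. Both strands were searched, matches of different motifs may share bases, as those of TTNNCGC and GGGCGG can, and a match describes the letters alone. The Cep shares count only the window nearest the annotated start of each gene. The shares of all windows, also that for the X-box, can count several starts of a gene and were not limited to protein-coding genes. The sets are therefore unlike.

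The first comparison set multiparous against virgin libraries. Of the 36 Cep genes, 21 had a higher and 15 a lower mean in multiparous hearts, with a median log2 difference of 0.0061, where the median over 17813 genes tested was −0.0030. Most differences were small, as they were over all genes. On the log2 scale 25 genes (69.4%) lay within 0.1 and 32 (88.9%) within 0.2 of no difference. Of all genes tested, 65.3% and 83.8% did. Cep128, Cep295nl, Cep55 and Cep85 were the genes at or beyond 0.2.

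edgeR's quasi-likelihood test called 0 of the 36 at an adjusted p under 0.05, and it called 2 of all 17813 genes (0.0112%). At an unadjusted p under 0.05 the count was 4 of 36 (11.1%), against 8.12% of all genes. Cep128 was higher, where 4.04% of all genes were called higher at that p, and Cep85, Cep83 and Cep41 were lower, where 4.09% were. DESeq2 called 1 of the 36, where it called 0.744% of the genes, and limma voom also called 1, where it called 0.0168%. In both it was Cep128. No Cep gene had groups that did not overlap, as 0.0337% of all genes had. Nothing is read from these counts, since the rule rests on this comparison. The labels do not state that each library is a separate mouse, so the errors and p-values measure the spread between libraries, part of which may be technical.

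**Figure D2:**
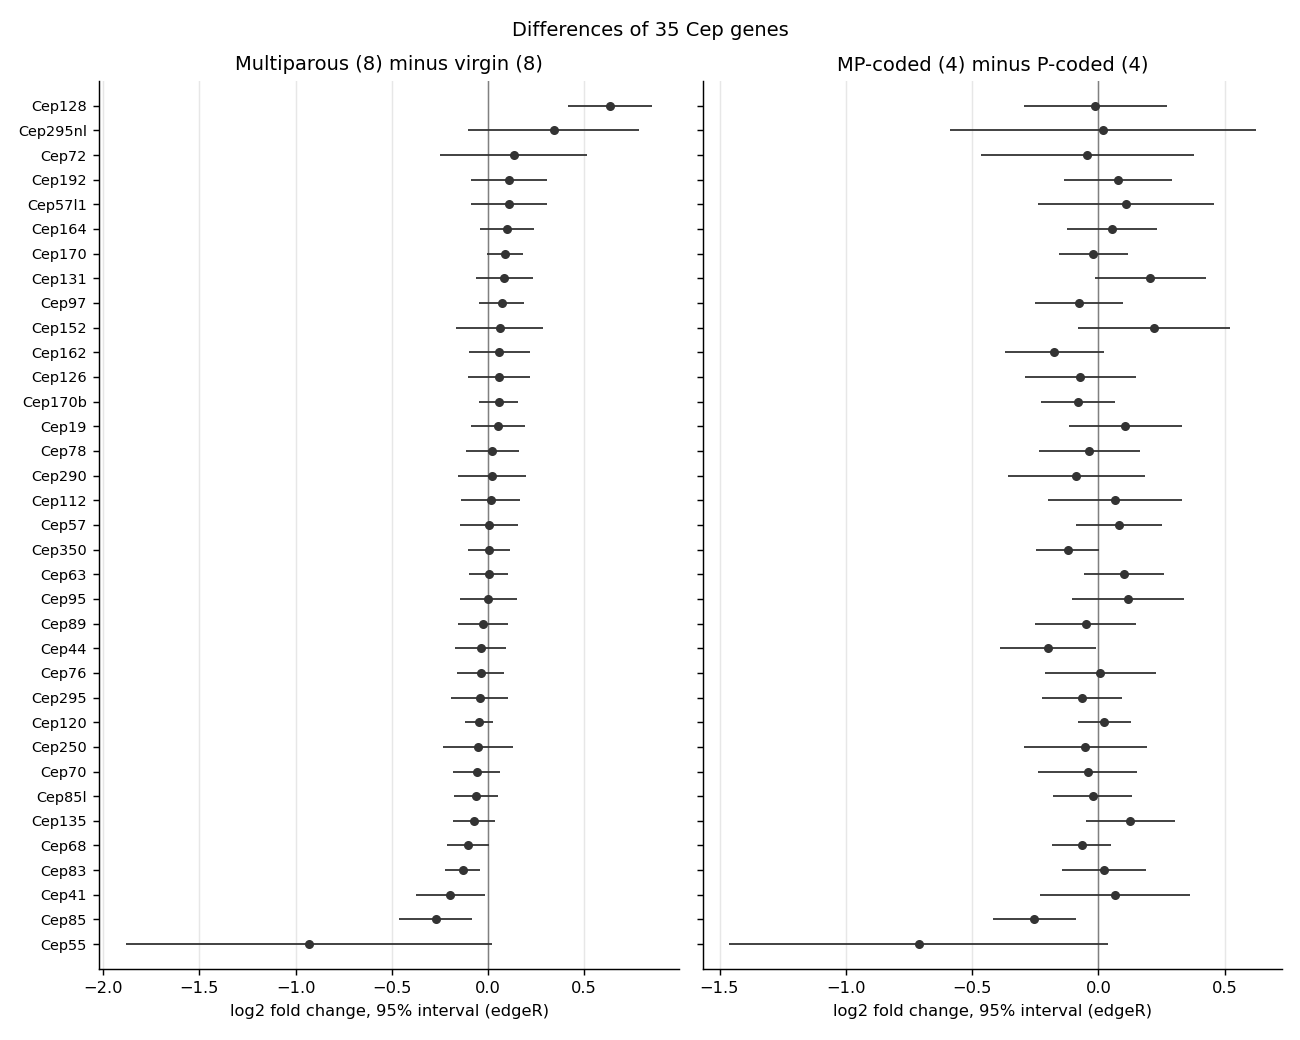
Log2 fold change with 95% interval (horizontal axis) of 35 Cep genes, ordered by the multiparous minus virgin value (left panel), with the MP-coded minus P-coded value beside it (right panel). On the left, the intervals of Cep128, Cep85, Cep83 and Cep41 do not hold 0, with Cep128 at the top (0.64) and Cep55 at the bottom (−0.93), and on the right Cep128 is at −0.01.

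Among the appendage genes of the mother centriole, Cep128 builds the subdistal appendages, which hold microtubules at the mother centriole. Its level was 16.4, 20.2 and 25.7 CPM (lowest, median and highest) in multiparous and 10.1, 12.7 and 17.9 CPM in virgin libraries. Multiparous libraries were higher, with 6 of 8 above every virgin library, and the groups overlapped through virgin 7 alone. The mean was 19.9 ± 2.95 CPM in multiparous and 12.8 ± 2.31 CPM in virgin libraries (SD, n = 8 each), a log2 difference of 0.64 (SE 0.105, 95% interval 0.42 to 0.86) or a ratio of means of 1.55. Without virgin 7 the difference was 0.72, and every other virgin library was at or below 12.9 CPM. With the kidney marker sum as a covariate it was 0.57 (SE 0.161).

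The other appendage genes differed less. Cep83, which lies at the base of the distal appendages, had 15.7, 17.7 and 19.5 CPM in multiparous and 18.0, 19.3 and 20.6 CPM in virgin libraries. Of the multiparous libraries, 5 of 8 were below every virgin library, and the log2 difference was −0.13 (SE 0.044, −0.22 to −0.04). The long non-coding RNA gene Cep83os, which starts 78 bases upstream of Cep83 and is transcribed away from it, had a log2 difference of −0.04 (SE 0.084).

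Cep170, a subdistal appendage protein that binds microtubules, had 35.3, 38.2 and 41.1 CPM against 33.0, 36.1 and 39.9 CPM, a log2 difference of 0.09 (SE 0.045). The groups overlapped over most of their range. Cep164, the distal appendage protein that recruits ciliary vesicles, had 12.0, 13.8 and 15.1 CPM against 10.9, 13.0 and 15.1 CPM, a difference of 0.10 (SE 0.067). Cep89, also of the distal appendages, and Cep170b, the paralogue of Cep170, had differences of −0.03 (SE 0.062) and 0.06 (SE 0.048). Over the 6 appendage genes, 4 had a higher and 2 a lower mean.

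**Figure D3:**
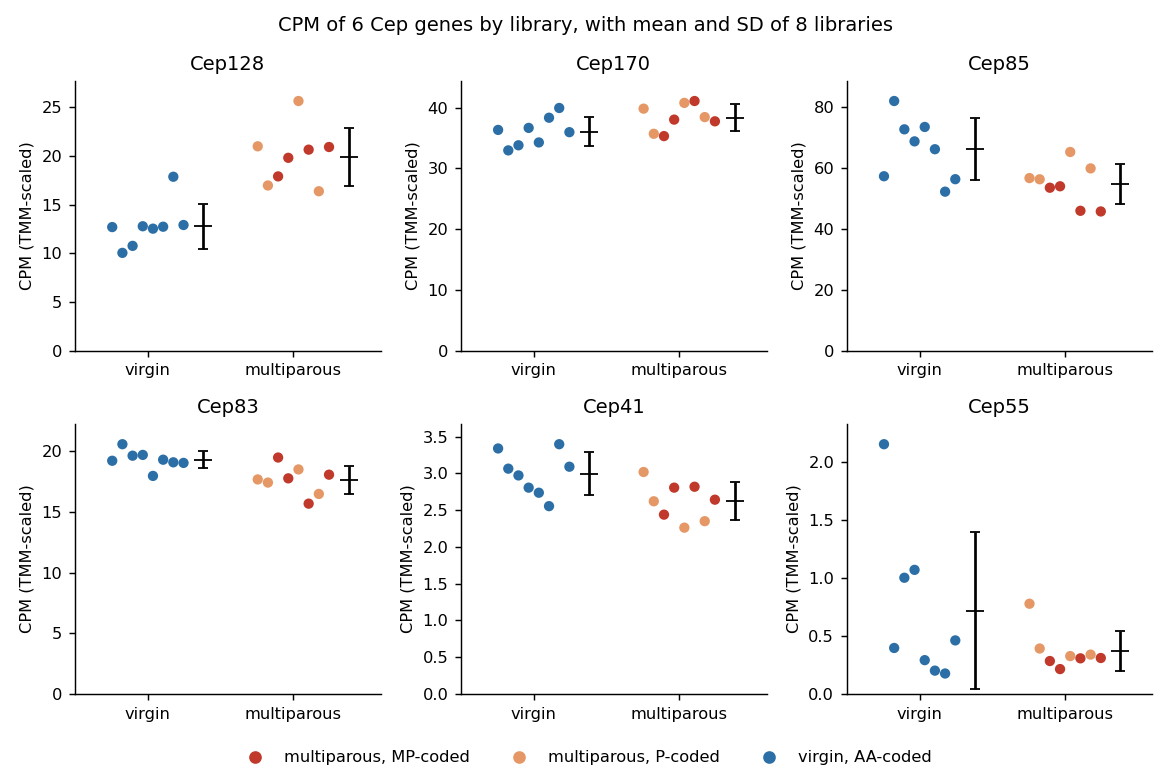
TMM-scaled CPM of 6 Cep genes, 1 panel each, with 1 point per library coloured by code and the mean and SD of the 8 libraries of each group as a bar. Cep128 is higher in multiparous libraries with virgin 7 (17.9 CPM) inside their range, and the points of Cep85, Cep83 and Cep41 are shifted down with overlap.

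The 13 genes of centriole duplication and of the conversion of a new centriole into a centrosome had 7 higher and 6 lower means, with a median difference of 0.0037. Cep85 had 45.7, 55.1 and 65.2 CPM in multiparous and 52.2, 67.4 and 81.9 CPM in virgin libraries. All 8 multiparous libraries were below the virgin median, and the groups overlapped between 52.2 and 65.2 CPM. The log2 difference was −0.27 (SE 0.090, −0.46 to −0.08).

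Cep152 and Cep192 bring the kinase Plk4 to the old centriole, and Cep63 works with Cep152. Their differences were 0.06 (SE 0.109), 0.11 (SE 0.094) and 0.00 (SE 0.049). Cep135, a cartwheel protein, had −0.07 (SE 0.052), and Cep120, needed for centriole elongation, −0.05 (SE 0.035). Cep97, which caps growing centrioles, had 9.72, 10.8 and 12.3 CPM against 9.37, 10.4 and 11.6 CPM. Its difference of 0.07 (SE 0.055) was smaller than the range of either group.

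Cep76, which restrains repeated duplication, had −0.04 (SE 0.058), Cep57 0.01 (SE 0.072), Cep44 −0.04 (SE 0.064) and Cep295, required for conversion, −0.04 (SE 0.071). Cep295nl had 0.414, 0.679 and 0.919 CPM against 0.346, 0.499 and 0.793 CPM, a difference of 0.34 (SE 0.211, −0.10 to 0.79). Cep295nl lies inside Timp2 on the same strand, with no shared exonic bases. Timp2, an inhibitor of matrix metalloproteinases, differed by 0.23 (SE 0.088) on the same scale, and its part in the Cep295nl counts was not tested.

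Of the 4 genes of the centriole linker and of microtubule anchoring, 3 had a lower mean. Cep68 had 79.3, 85.4 and 93.1 CPM in multiparous and 74.5, 92.9 and 102 CPM in virgin libraries, a log2 difference of −0.10 (SE 0.053, −0.21 to 0.01). The multiparous range lay wholly inside the virgin range. Cep250, the rootlet-like protein that links the pair, had −0.05 (SE 0.087), Cep70 −0.06 (SE 0.059), and Cep350, which anchors microtubules, 0.00 (SE 0.052).

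Among the 9 genes of the cilium and of centriolar satellites, 7 had a higher and 2 a lower mean. Cep41, which acts in the glutamylation of ciliary tubulin, had 2.26, 2.63 and 3.02 CPM in multiparous and 2.55, 3.02 and 3.40 CPM in virgin libraries. Its log2 difference was −0.20 (SE 0.085, −0.37 to −0.02), with 3 multiparous libraries below every virgin library.

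Cep131, a satellite protein, had 4.88, 6.06 and 6.46 CPM against 5.02, 5.51 and 6.15 CPM, a difference of 0.09 (SE 0.070). Cep290, a transition zone protein known for its part in human ciliopathies, differed by 0.02 (SE 0.085). Differences of others in this group were small, with Cep72 at 0.13 (SE 0.183), Cep162 at 0.06 (SE 0.076), Cep126 at 0.06 (SE 0.077), Cep19 at 0.05 (SE 0.068) and Cep78 at 0.02 (SE 0.066).

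Cep55 recruits the machinery that cuts daughter cells apart at the end of division. It had 0.214, 0.317 and 0.776 CPM in multiparous and 0.176, 0.428 and 2.15 CPM in virgin libraries. The lowest libraries of both groups were close to each other, and virgin 1 (2.15 CPM) stood above all others. The log2 difference was −0.93 (SE 0.454, −1.88 to 0.02), and −0.44 without virgin 1. With the kidney marker sum as a covariate it was 0.34 (SE 0.663), so its direction was not kept.

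**Figure D4:**
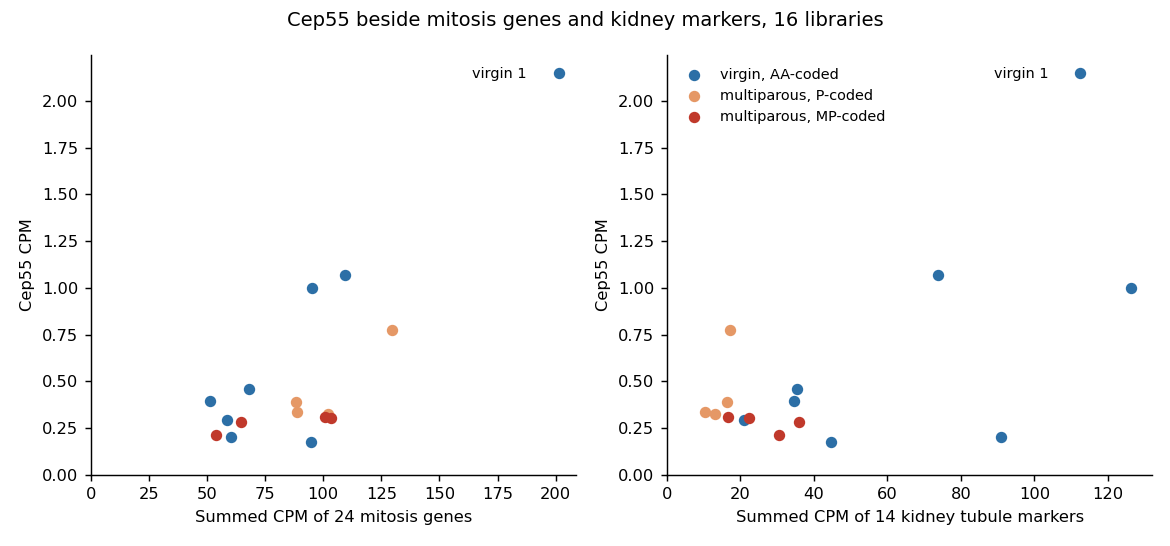
Cep55 CPM (vertical axis) of the 16 libraries against the summed CPM of 24 mitosis genes (left panel) and of 14 kidney tubule markers (right panel), coloured by library code. Virgin 1 is highest for Cep55 (2.15 CPM) and for the mitosis genes (201 CPM), while the kidney sum is highest in another virgin library (126 CPM). Cenpf makes up a large part of the mitosis sum.

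For the 3 genes without an assigned role, Cep85l, Cep95 and Cep112, the differences were −0.06 (SE 0.054), 0.00 (SE 0.070) and 0.01 (SE 0.074). Paralogues did not share a direction in every pair. Cep57l1 had 0.11 (SE 0.094) beside Cep57 at 0.01, Cep85l had −0.06 beside Cep85 at −0.27, and Cep170b had 0.06 beside Cep170 at 0.09. Cep295nl at 0.34 stood beside Cep295 at −0.04. How reads that match both paralogues were counted is not stated in the labels.

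Annotated exons of 11 Cep genes share bases with another gene, in 10 of them with a gene on the opposite strand. The kit keeps strand, but whether the counting used it is not stated in the labels, so reads of such pairs cannot be told apart. Cep85l shares 141 of its 7986 exonic bases with Pln, phospholamban, whose mean was 5070 ± 258 CPM in multiparous and 5086 ± 311 CPM in virgin libraries (SD, n = 8 each). Cep85l also shares 439 bases with Gm47641, which had a mean of 0.0231 CPM before TMM scaling. Cep295 shares 77 bases with Taf1d. It shares more, 1765, 712 and 545 bases, with Gm16568, Gm48141 and Gm48142, each with a mean of at most 0.00284 CPM before TMM scaling. Cep250 shares 1149 bases with 6430550D23Rik. Cep290 shares 881 with 4930430F08Rik and Cep63 shares 239 with Anapc13. Cep131 shares 21 bases with a miRNA gene on its own strand. Cep128 shares none.

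The spread between libraries of 1 group was low at the middle of the family. The median SD on the log2 scale was 0.135 over the 36, against 0.172 over all genes tested, and the median biological coefficient of variation was 0.0983 against 0.1196. Cep120 (0.063) varied least. Cep55 (0.912), Cep295nl (0.412) and Cep72 (0.344) varied most and were also the lowest in level. Cep128 came next at 0.226.

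The second comparison used the 8 multiparous libraries alone and set the MP-coded against the P-coded ones. The choice of the Cep genes did not rest on it. edgeR's quasi-likelihood test called 0 of the 36, where it called 22 of 18123 genes (0.121%). At an unadjusted p under 0.05 the count was 2 of 36 (5.56%), against 11% of all genes. DESeq2 called 0, where it called 1.63% of genes, and limma voom called 0, where it called 0.0717%. Of the 36, 16 had a higher and 20 a lower mean in MP-coded libraries.

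Cep85 was the gene with the smallest p. It had 45.7, 49.7 and 53.9 CPM in MP-coded and 56.2, 58.2 and 65.2 CPM in P-coded libraries (lowest, median and highest of 4 each). All MP-coded libraries were below all P-coded ones. The log2 difference was −0.25 (SE 0.075, −0.42 to −0.09) with an adjusted p of 0.231 by edgeR's quasi-likelihood test, so it did not pass. The mean of the virgin libraries, 66.0 ± 10.1 CPM (n = 8), was above that of either code, 49.7 ± 4.57 CPM and 59.4 ± 4.14 CPM (n = 4 each).

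Kidney tubule markers also differed between the codes, with sums of 16.6 to 35.96 CPM in MP-coded and 10.4 to 17.1 CPM in P-coded libraries. Of the 7 that passed the filter on low counts, 6 had a higher mean in MP-coded libraries. edgeR called 3 of them, where it called 0.121% of all genes. A gene can pass that filter through the code where it is high, so these counts can be partly set by the filter. With the kidney marker sum as a covariate the log2 difference of Cep85 was −0.35 (SE 0.112). Over the 18 alternatives to the fit, the adjusted p of Cep85 ranged from 0.0923 to 0.516. Other lists differed between the codes as well. In MP-coded libraries 23 of 24 mitosis genes had a lower mean (median −0.40) and 6 of 6 macrophage markers a higher one (median 0.29). edgeR called 0 in both lists. At an unadjusted p under 0.05 were 4 mitosis genes, all lower, and 2 macrophage markers, both higher, where 11% of all genes reached that p.

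Cep44, a centriolar protein of conversion, had 5.64, 5.99 and 6.73 CPM against 6.70, 6.90 and 7.56 CPM, with a log2 difference of −0.20 (SE 0.086) and an adjusted p of 0.426 by the same test. The highest MP-coded library lay above the lowest P-coded one. Besides Cep85, only Cep55 had MP-coded libraries that were all below the P-coded ones, at 0.214 to 0.309 CPM against 0.325 to 0.776 CPM (adjusted p of 0.476 by the same test). Those are 2 of 36 genes (5.56%), where 2.92% of all genes lay lower without overlap and 5.88% did not overlap in either direction.

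Cep128 had 17.9, 20.2 and 20.9 CPM in MP-coded and 16.4, 19.0 and 25.7 CPM in P-coded libraries. The means were 19.8 ± 1.36 and 20.01 ± 4.29 CPM (SD, n = 4 each), and the P-coded range held the MP-coded one. The difference was −0.01 (SE 0.128, −0.29 to 0.27), and its interval holds differences in either direction. Against the virgin libraries, which both comparisons share, Cep128 differed by 0.63 in the MP-coded and 0.64 in the P-coded libraries. Both values are parts of the difference by which the family was chosen, so their likeness is no separate support for it.

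Other genes of the centrosome and cilium are given for their place beside the Cep genes. In a list of 17 genes of centriole duplication, 10 had a higher mean in multiparous libraries, and in one of 16 genes of appendages and anchoring, 11 did. In pericentriolar material 11 of 19 and in the primary cilium 25 of 38 were higher. Medians of these lists were 0.01, 0.02, 0.01 and 0.02 on the log2 scale, and edgeR's quasi-likelihood test called 0 genes in each. At an unadjusted p under 0.05 there was 1 gene in the appendage list and 1 in the cilium list, both higher, where 8.12% of all genes tested reached that p.

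Ninl, a partner of gamma-tubulin at the mother centriole, had the smallest p of the appendage list, with 2.63, 2.85 and 3.79 CPM against 2.05, 2.59 and 2.98 CPM and a log2 difference of 0.28 (SE 0.109). In the cilium list Ift140, a part of the retrograde transport complex, had 8.34, 9.24 and 10.8 CPM against 7.34, 8.59 and 9.31 CPM, a difference of 0.16 (SE 0.064). Both groups overlapped in both genes. Adjusted p-values were 0.495 for Ninl and 0.510 for Ift140 by edgeR's quasi-likelihood test. In the duplication list, Cetn3, a centrin, differed by −0.10 (SE 0.051), and in the pericentriolar list Mzt1, a small subunit of the gamma-tubulin ring, by −0.10 (SE 0.050).

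The mitosis list went the other way, with 23 of 24 genes lower in multiparous libraries and a median of −0.67, and edgeR's quasi-likelihood test called 0 of them. At an unadjusted p under 0.05 there were 1 higher and 1 lower, where 4.04% and 4.09% of all genes were. Cenpf, a kinetochore protein, was the 1 gene with a higher mean, at 33.9, 56.5 and 73.4 CPM against 13.2, 34.6 and 73.3 CPM. Aurkb, a mitotic kinase, had 0.223, 0.407 and 0.759 CPM against 0.325, 0.463 and 2.69 CPM. Sums of the list were higher in virgin 1 than in any other library, as Cep55 was, and the part of virgin 1 in the list's median was not tested.

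Genes whose pattern over the libraries was most like that of Cep128 were found among 17812 genes by Pearson's r of log2 CPM after subtracting each group's mean, over 16 libraries. The closest were Znf41-ps (0.93), Arl13b (0.90), Rock1 (0.87), Aff2 (0.86) and Gm42548 (0.85). All share depth and library with Cep128. Arl13b is a small GTPase of the ciliary membrane, and Rock1 is a kinase that acts on actomyosin. Their differences between the groups were 0.11 (SE 0.115) for Znf41-ps, −0.01 (SE 0.070) for Arl13b and 0.01 (SE 0.044) for Rock1. Aff2 differed by 0.29 (SE 0.128) and Gm42548 by 0.45 (SE 0.188).

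**Figure D5:**
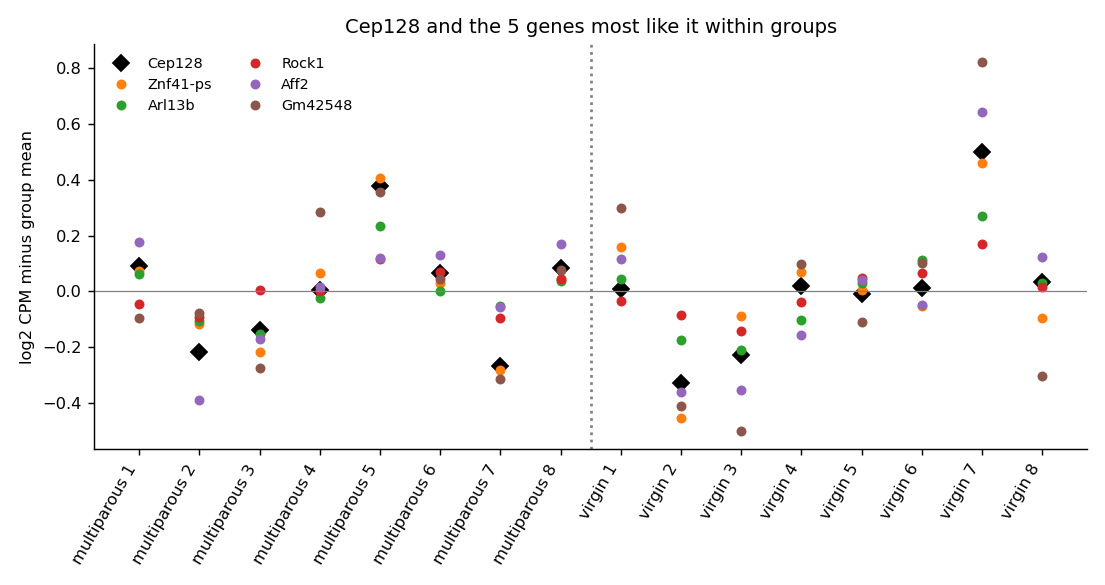
Log2 CPM minus the mean of the group (vertical axis) for Cep128 (diamonds) and the 5 genes most like it (circles) in each library (horizontal axis). For Cep128, virgin 7 and multiparous 5 are the highest of their groups, and virgin 2 and multiparous 7 the lowest.

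Within the family the median r with Cep128 was 0.21 over 35 genes, where it was 0.02 over all genes compared. Cep170, also a subdistal appendage protein, had the highest value at 0.80, followed by Cep126 at 0.72 and Cep295 at 0.56. Cep85 was lowest at −0.46 and Cep68 next at −0.34. The appendage genes as a group did not follow Cep128, with Cep164 at 0.34, Cep89 at 0.03, Cep170b at −0.03 and Cep83 at −0.06. These correlations are a description, taken over libraries that also differ in depth and in single outlying values such as that of virgin 7.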

How the data were processed

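RNA of the left ventricular mid section was sequenced in 16 libraries (8 multiparous, 8 virgin), as paired reads of 150 bases from stranded, ribosomal RNA-depleted total RNA, per the labels. The authors deposited raw counts per gene, 1 table per library. The submitters' processing notes name the aligner STAR 2.7.11b, the counter HTSeq 0.11.1 and the build GRCm38.p6, besides cutadapt 4.8 and Trim Galore 0.6.10. Neither the annotation release nor the strand setting is given in the sources used here. Rows that name no gene, 26.5% to 33.1% of each table, stayed out of library sizes and tests.

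Counts were fitted with edgeR 4.0.16 (R 4.3.3), TMM factors, filterByExpr and the quasi-likelihood F-test, on group alone, with Benjamini-Hochberg adjustment over all genes tested and a threshold of 0.05. DESeq2 1.42.0, limma 3.58.1 voom, other factors and filters, a replicate block and left-out libraries were alternatives. Counts of 56 library pairs of the same group differed beyond sampling noise, with a chi-square per degree of freedom of at least 9.85, so each counted as a library of its own. The fit was tested on simulated data. Levels are TMM-scaled CPM, per kilobase of exons in GENCODE M21, to which all 36 genes matched. A count of 0 allows up to 3 counts, for counting error only.

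The members, gene lists and rules were chosen with earlier results of these data known. Named are 35 of the 36 genes, since 1 is counted but not reported here, with more detail for the 6 highest per kilobase, 6 genes in each direction by smallest p between the groups, those at an unadjusted p under 0.05 between the codes, paralogues, genes that share exonic bases, up to 4 genes of each list and the 5 genes most like Cep128. Replicate numbers were not used as pairs in the fit reported. The multiciliated and thyroid marker lists had 1 gene each that could be tested.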

Additional observations from a re-analysis of the deposited data

Results flagged for a closer look

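In each group of 8 libraries the highest and lowest CPM of 35 Cep genes were compared with the rest, and 12 values stood further from the nearest library than Dixon's test allows at its 95% critical value. With 70 groups examined and chance giving 1 in 20, 3.5 such values would arise by chance.

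Virgin 1 held 6 of the 12, the largest number of any library. It was highest of the virgin libraries for Cep55 (2.15 CPM), Cep152 (4.65), Cep192 (15.9), Cep250 (11.5), Cep89 (13.98) and Cep95 (8.87). Cep55 acts in the last step of cell division, Cep152 and Cep192 in centriole duplication and Cep250 in the centriole linker. The same library had the highest summed CPM of the mitosis genes (201) and the lowest of the cardiomyocyte markers (57063), and their part in these values was not tested.

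Virgin 7 was highest for Cep128 (17.9 CPM, with the next virgin library at 12.9) and for Cep126 (7.26, the next at 5.69). Among multiparous libraries, multiparous 1 was highest for Cep55 (0.776 CPM), multiparous 6 for Cep57l1 (3.96) and multiparous 7 for Cep170b (26.9). Multiparous 3 was lowest for Cep250 (6.25 CPM).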

How the results depend on the processing

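Between the groups, the count of Cep genes called rose from 0 to 1 under DESeq2, under limma voom, without a filter, with a filter of 1 CPM in 8 libraries and with a replicate block. Counts of calls with 1 library left out at a time are not given, since the share of all genes called by those fits is not at hand. The gene was Cep128 each time, and its log2 difference was 0.57 to 0.72 over the 30 alternatives. All these fits reuse libraries on which the choice of the family rests, so they are no support for the difference. At an unadjusted p under 0.05 the count went from 4 to 7 of 36 (19.4%) without virgin 1, alone or together with virgin 8, where the share of all genes went from 8.12% to 12.1% and 10.9%. Over all genes, the calls were 2 (0.0112%), and 130 with DESeq2 (0.744%) and 3 with limma voom (0.0168%). They were 56 without a filter (0.154%), 3 with the filter of 1 CPM (0.0218%) and 33 with the replicate block (0.185%). With the P-coded libraries alone the calls were 97 (0.521%). They were 0 without factors, with the MP-coded libraries alone and with the kidney covariate, at 1610, 1596 and 1028 genes at an unadjusted p under 0.05. Of the same-numbered libraries, 1 of 8 pairs had a correlation over 0.1, so these values give the block no basis. They cannot show that the design had no pairing.

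Between the codes, 0 Cep genes were called under all 18 alternatives. At an unadjusted p under 0.05 the count of 2 became 1 without multiparous 1, 2, 6 or 8, with 8.73% to 12.7% of all genes, and 6 (16.7%) without multiparous 7, with 9.83% of all genes. Calls over all genes were 22, and 295 with DESeq2, 13 with limma voom, 389 without a filter, 7 without factors, 2 with all 16 libraries in the fit and 3 with the kidney covariate. The cause of these differences was not tested. In the multiparous against virgin comparison, the log2 difference of Cep55 went to 0.34 and that of Cep170b to −0.06 with the kidney covariate. Cep131 and Cep135 also changed sign between those groups, in 1 of 30 alternatives each. The newer edgeR method and the kidney covariate, and leaving out virgin 1 and 8 together, were added after the data were seen. The planned legacy method is the default of this edgeR version, so it was the fit reported. With the longest transcript as length, 31 genes had at least 1 CPM per kilobase in place of 26.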
